A study of Mus musculus with 9 samples.

Results

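Type I interferon-stimulated genes are the genes that cells switch on after exposure to interferon alpha or beta, and 42 of them were taken by symbol from a list of well-known members. All 42 had a row in each of the 9 libraries, among 17134 genes in all, and all 42 passed a filter on low values that left 14600 genes. They were measured by RNA-seq in subcutaneous tumours of MC38, a mouse colon adenocarcinoma cell line, grown in C57BL/6 mice and taken on day 20. The cells had been infected with lentivirus and selected with puromycin. Control cells carried a non-targeting shRNA (NTC), and the others carried GAD1-shA or GAD1-shB, 2 shRNAs against Gad1, the enzyme that makes the neurotransmitter GABA from glutamate. Each group had 3 libraries. The shRNAs were put into the cancer cells before implantation, so the host cells of the tumour did not carry them. The age and sex of the mice, whether every tumour was from a different mouse, and whether the infected cells were a pool or a clone are not stated in the available descriptions. P-values therefore cover only how far these libraries spread, which may be technical. The comparisons ask whether the level of these genes differed between knockdown and control tumours, and between the shRNAs.

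Type I interferons bind a receptor made of IFNAR1 and IFNAR2, whose kinases JAK1 and TYK2 phosphorylate STAT2. It joins IRF9 in a complex that binds a DNA element, the interferon-stimulated response element, in the promoters of its target genes. Many of the targets act against viruses: they sense foreign RNA, bind or degrade it, block its translation, or hold back virus release. Interferon gamma acts through another receptor, and many of the same genes also answer to it. In tumours these genes can be expressed by cancer cells, immune cells and stroma, and a whole-tumour library does not tell them apart.

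The core of the response element can be written GAAANNGAAA, where N is any base. It was looked for on both strands of RefSeq promoters (GRCm38.p6), each running from 250 bases before the annotated start of a gene to 50 bases after it; overlapping matches were kept. Of the 42 genes, 33 had an entry, and 15 of these (45.5%) held a match, against 1079 of 27025 genes (3.99%) in the whole table. The following stretches are shown because Isg15, Ifit1 and Ifit3 stand for the ubiquitin-like modifier and the IFIT family described later; they are the 250 bases before the start, 5′ to 3′ on the gene's strand, with the matches in capitals.
Isg15 (GRCm38.p6 chr4:156200819-156201068, minus strand): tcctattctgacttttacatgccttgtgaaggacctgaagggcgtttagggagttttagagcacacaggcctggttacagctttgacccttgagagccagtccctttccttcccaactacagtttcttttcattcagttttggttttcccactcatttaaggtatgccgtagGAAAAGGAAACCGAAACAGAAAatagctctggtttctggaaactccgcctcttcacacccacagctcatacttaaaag
Ifit1 (GRCm38.p6 chr19:34640639-34640888, plus strand): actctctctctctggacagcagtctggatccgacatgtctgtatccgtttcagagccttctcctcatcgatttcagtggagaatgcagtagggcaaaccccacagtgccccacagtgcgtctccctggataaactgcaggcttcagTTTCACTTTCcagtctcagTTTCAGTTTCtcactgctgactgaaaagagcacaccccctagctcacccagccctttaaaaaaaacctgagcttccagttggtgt
Ifit3 (GRCm38.p6 chr19:34583279-34583528, plus strand): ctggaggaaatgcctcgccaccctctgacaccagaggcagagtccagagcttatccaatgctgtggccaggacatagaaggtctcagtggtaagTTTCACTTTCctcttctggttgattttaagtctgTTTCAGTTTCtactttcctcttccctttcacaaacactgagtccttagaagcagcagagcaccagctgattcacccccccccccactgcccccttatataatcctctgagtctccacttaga
Capitals in Isg15 cover 3 overlapping matches on the gene's strand, and those in Ifit1 and Ifit3 cover matches on the opposite strand, where the element reads from right to left.

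Shorter windows of 30 bases, of the same build, show the same core in genes that serve other roles, and in the single promoter match among the genes that did not pass the test described next. Ddx60, Oas1a, Trim30a, Bst2 and Phf11b each belong to a different role group, and Eif2ak2 is the gene that did not pass.
Ddx60 (chr8:61928024-61928053, plus strand): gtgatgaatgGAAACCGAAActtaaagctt
Oas1a (chr5:120907526-120907555, minus strand): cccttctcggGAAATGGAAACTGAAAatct
Trim30a (chr7:104465210-104465239, minus strand): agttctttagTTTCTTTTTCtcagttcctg
Bst2 (chr8:71537583-71537612, minus strand): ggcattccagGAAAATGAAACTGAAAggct
Phf11b (chr14:59341361-59341390, minus strand): cacatttagaGAAAAAGAAActagaaacta
Eif2ak2 (chr17:78882535-78882564, minus strand): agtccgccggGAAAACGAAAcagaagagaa
Matches lay on either side of the start. The match of Eif2ak2 ran from base 19 to base 28 after the start, and Oas1a had overlapping matches that ended 5 bases before it. A match is a description of these letters and not a shown binding site. A second motif, TTCNNNGAA, the core of the gamma-activated site, was found in 7 of the 33 promoters (21.2%) and in 2582 of 27025 genes (9.55%). Its letters read the same on both strands, and overlap with the first motif was not removed.

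**Figure D1:**
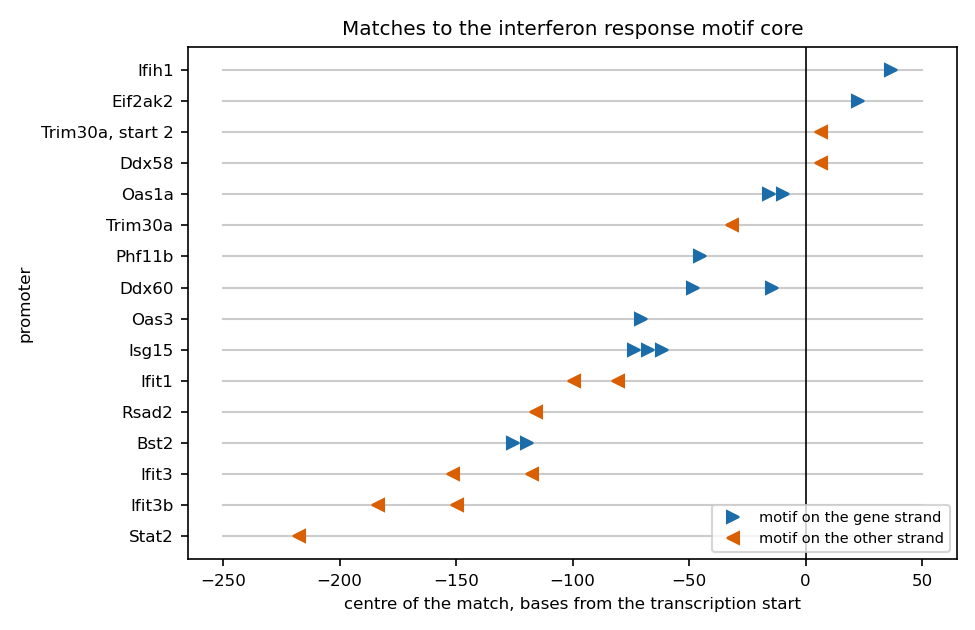
Position of each match to GAAANNGAAA in the promoters that held one. The x axis is the distance in bases from the transcription start to the centre of the match, each grey line is 1 promoter window, and the arrow gives the strand. The matches spread from over 200 bases before the start (Stat2) to after it (Ifih1, Eif2ak2).

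Values are reads per gene divided by 1 factor per library, called normalized reads here, and depth ranged from 18373748 to 24918174 reads per library. Within a group, no pair of libraries was alike to within counting noise: chi-square divided by its degrees of freedom ran from 8.19 to 152. Gad1 itself read 281, 265 and 326 normalized reads in the NTC libraries, 13.1, 23.4 and 50.0 with shA and 21.8, 42.2 and 23.6 with shB, so it was lower in every knockdown library than in any control, with an exact two-sided permutation p of 0.0119 over 84 assignments. Some libraries stood apart from their group. NTC replicate 1 had the lowest summed level of 5 leukocyte markers, 568 normalized reads where the other controls had 1315 and 1767, and the highest of the red blood cell markers, 61042. Replicate 1 of shA had the highest leukocyte sum, 18104 against 5651 to 7497 in the other knockdown libraries, and a B cell marker sum of 2304 against 41.3 to 96.9 in all 8 other libraries. In shB replicate 1, genes with short transcripts were low and those with long transcripts high relative to the other shB libraries. None of the tumour and epithelial, leukocyte, macrophage or T cell markers was at 0 in any library.

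Nearly the whole set was higher in the knockdown tumours. With the average of shA and shB set against NTC, 40 of the 42 genes rose and 0 fell at an adjusted p of at most 0.05 (limma, Benjamini-Hochberg over 14600 genes), where 15.5% of all genes tested rose and 9.49% fell. The median log2 change was 2.45 for the 42 genes and -0.03 for all genes tested. Single genes ranged from 0.31 for Adar to 4.18 for Ifit3. All 6 knockdown libraries lay above all 3 NTC libraries for 36 of the genes, a pattern that 16.0% of all genes tested had. The summed level of the 42 genes was 9694, 17963 and 22283 normalized reads in the NTC libraries, 34005, 60697 and 70067 with shA and 66715, 70849 and 86363 with shB. The lowest knockdown library was thus above the highest control, and shA replicate 1 stood below the other 5 knockdown libraries.

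The controls also differed among themselves. NTC replicate 1 was the lowest NTC library for 38 of the 42 genes and NTC replicate 2 for the other 4. The median ratio of NTC replicate 1 to the mean of the other NTC libraries was 0.391. Without NTC replicate 1, 36 of the 42 genes rose, where 10.2% of all genes tested did, and the median log2 change was 1.99. The change of 14 genes was then smaller by more than 1.5-fold: Cmpk2, Ddx60, Epsti1, Herc6, Ifi27l2a, Ifi44, Ifit1, Ifit2, Ifit3, Oas2, Oasl2, Parp14, Phf11b and Xaf1. Leaving out NTC replicate 3 made the change of Ddx60, Herc6, Oas2 and Xaf1 larger by more than 1.5-fold. Of the 40 genes that rose, 36 passed with each of the 9 libraries left out in turn; the others were Stat2, Dtx3l, Parp9 and Parp12. The first 3 lost their call only without NTC replicate 1, with adjusted p of 0.0686, 0.114 and 0.0609 in limma. Parp12 lost it without NTC replicate 1 (0.148), NTC replicate 2 (0.0663), shA replicate 2 (0.0529), shA replicate 3 (0.0559) or shB replicate 3 (0.0561).

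**Figure D2:**
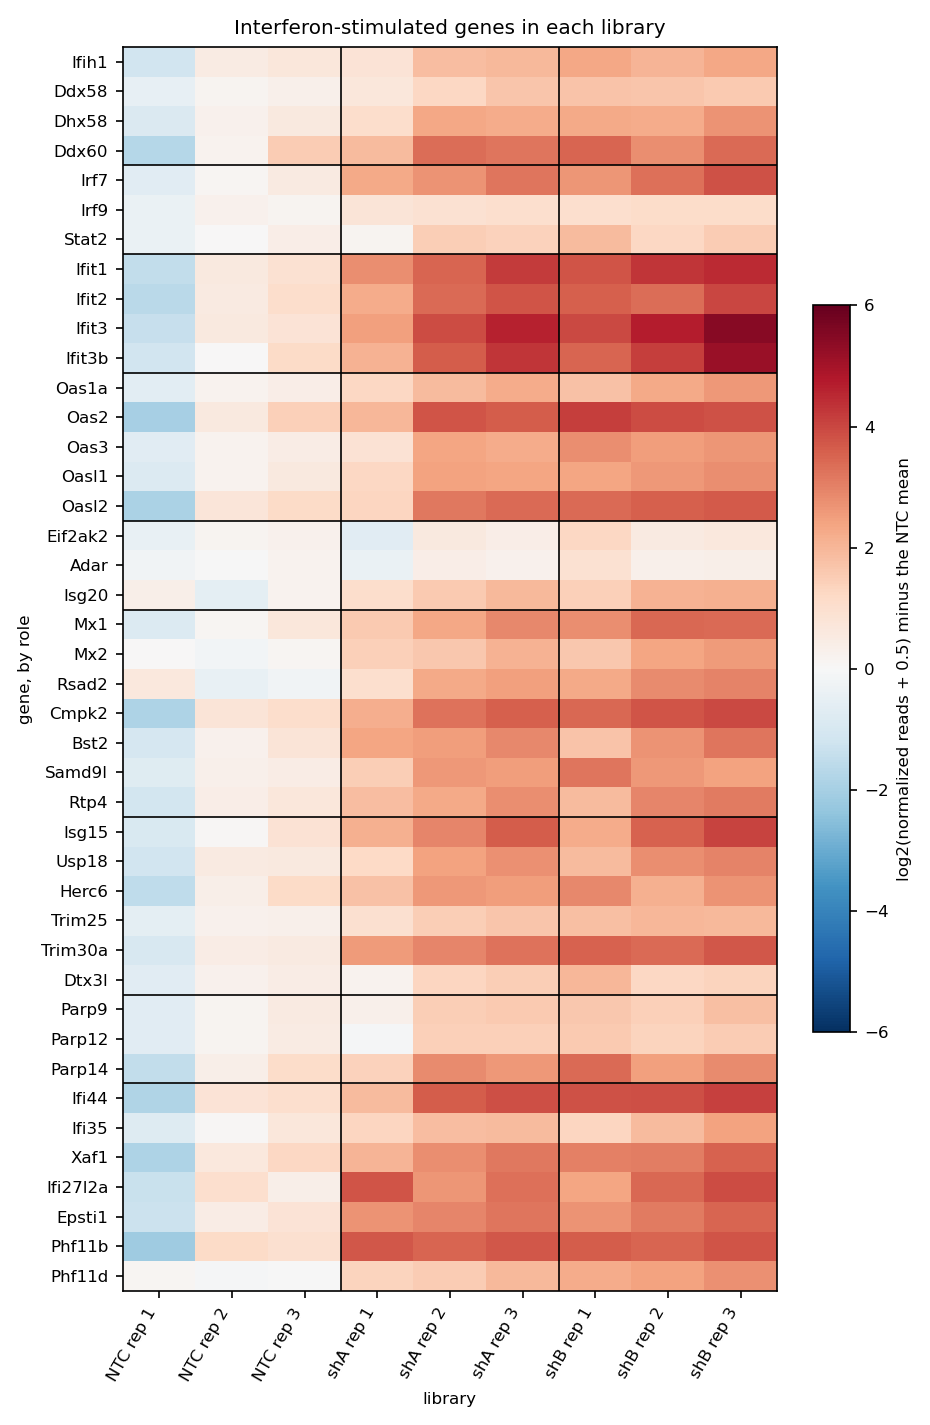
Level of each of the 42 genes in each library, as log2(normalized reads + 0.5) minus the mean of the NTC libraries, with genes grouped by role between the black lines. Red is above and blue below the NTC mean; NTC replicate 1 is the lowest control for 38 genes and shA replicate 1 the lowest knockdown library for 38.

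The sensors of foreign RNA all rose, by a median of 2.01 on the log2 scale. Ifih1 and Ddx58 encode MDA5 and RIG-I, helicases that detect double-stranded RNA in the cytoplasm, and Dhx58 encodes their relative LGP2. Ddx60, a helicase reported to assist RIG-I, had the largest change of the group: it read 9.01, 36.1 and 90.2 normalized reads in NTC replicates 1 to 3, 118, 318 and 295 with shA and 354, 215 and 334 with shB. The groups did not overlap, and the 3 control values spread over a wider ratio than the 6 knockdown values. The log2 change of Ddx60 was 3.02 (SE 0.62), with an adjusted p of 0.00669; it was 2.15 without NTC replicate 1 and 3.78 without NTC replicate 3. Ddx58 changed least, with 388, 622 and 686 in NTC, 877, 1315 and 1721 with shA and 1799.6, 1747 and 1638 with shB. Its groups did not overlap either, and its log2 change was 1.42 (SE 0.23, adjusted p 0.00207). Mean levels of Ifih1 went from 378 ± 202 in the controls to 1019 ± 377 under shA and 1559.6 ± 158 under shB (SD, n = 3). Those of Dhx58 went from 251 ± 112 to 899 ± 363 and 1239 ± 224 (SD, n = 3).

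Transcription factors of the pathway rose by a smaller median, 1.28. Irf7, which drives transcription of the interferon alpha genes and is itself induced by interferon, had the largest change. It read 199, 345 and 461 in NTC, 1517, 2060.1 and 2975 with shA and 2009, 3132 and 4424 with shB, so the lowest knockdown value was above the highest control value more than 3-fold. The log2 change of Irf7 was 2.99 (SE 0.32), with an adjusted p of 0.000518. Irf9, the DNA-binding part of the complex with STAT2, read 616, 989 and 912 in NTC, 1409.5, 1535 and 1636 with shA and 1638, 1783 and 1776 with shB. All 6 knockdown values were again above the controls, but the change was only 0.98 (SE 0.15, adjusted p 0.00166). For Stat2 the means were 1152 ± 308 in the controls, 2429 ± 1038 under shA and 3371 ± 744 under shB (SD, n = 3). With shA alone Stat2 did not pass (log2 change 1.00, SE 0.34, adjusted p 0.0742), and its level in shA replicate 1 lay within the range of the controls.

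The IFIT genes had the largest median change of the 9 role groups, 3.82, and all 4 rose. IFIT proteins bind RNA and act on its translation; IFIT1 recognises the 5′ end of viral RNA. Ifit3 changed most among the 42 genes: it read 20.3, 80.3 and 96.0 in NTC, 298, 824 and 1326 with shA and 846, 1420.4 and 2371 with shB. The groups did not overlap, and within each knockdown group replicate 3 was the highest. The log2 change of Ifit3 was 4.18 (SE 0.59), an 18.1-fold rise, with an adjusted p of 0.00116, and 3.49 without NTC replicate 1. Ifit2 changed least in the group, from 31.5, 146 and 208 in the controls to 459, 1034 and 1371 with shA and 1202, 1019 and 1588 with shB, a log2 change of 3.39 (SE 0.55, adjusted p 0.00212) and 2.57 without NTC replicate 1. Ifit1 went from 139.7 ± 89.9 in the controls to 1357 ± 638 under shA and 2085 ± 511 under shB (SD, n = 3). Ifit3b, a close copy of Ifit3, had means of 25.4 ± 18.9, 257 ± 163 and 459 ± 274 (SD, n = 3). The Ifit3 and Ifit3b promoters were identical at 259 of 340 aligned columns (76.2%). Each promoter window held 300 bases, so nearly all of the columns that were not identical were gaps. The percentage therefore understates how alike the paired bases were. A shared match began 156 bases before the annotated start of Ifit3 and 188 bases before that of Ifit3b. The 30-base windows around this match were the same in both genes:
Ifit3 (GRCm38.p6 chr19:34583363-34583392, plus strand): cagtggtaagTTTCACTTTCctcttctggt
Ifit3b (GRCm38.p6 chr19:34607759-34607788, plus strand): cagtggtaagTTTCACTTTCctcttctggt
Reads shared by these copies may have been split between them by the counting, so the level of each is uncertain.

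All 5 OAS genes rose, by a median of 2.30. OAS proteins that are active enzymes make short oligoadenylates when they meet double-stranded RNA, and these activate the nuclease RNase L. Oas2 had the largest change, from 14.6, 90.3 and 166 in the controls to 243, 839 and 761 with shA and 1073, 912 and 877 with shB. The groups did not overlap, and the control values differed more than 10-fold between NTC replicates 1 and 3. Its log2 change was 3.55 (SE 0.67), with an adjusted p of 0.00453; it was 2.54 without NTC replicate 1 and 4.27 without NTC replicate 3. Oas1a changed least, from 192, 348 and 400.1 in the controls to 717, 1107 and 1406 with shA and 1027, 1466 and 1812 with shB, with a log2 change of 2.01 (SE 0.29, adjusted p 0.00129). Mouse Oas1 has several near-identical copies, so the count of Oas1a is uncertain. Oasl2 went from 605 ± 442 to 3175 ± 1846 under shA and 5106 ± 511 under shB (SD, n = 3), and Oasl1, which in mouse represses translation of Irf7, from 157 ± 70.2 to 625 ± 245 and 878 ± 123 (SD, n = 3).

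The 2 genes that did not pass were both enzymes acting on double-stranded RNA. Eif2ak2 encodes PKR, a kinase that stops translation when it binds double-stranded RNA. It read 411, 620.3 and 663 in NTC, 342, 835 and 735 with shA and 1298, 796 and 867 with shB, and shA replicate 1 was the lowest of all 9 libraries. The log2 change was 0.45 (SE 0.30) with an adjusted p of 0.294 and a 95% interval from -0.21 to 1.11. Adar encodes ADAR1, which edits adenosine to inosine in double-stranded RNA and keeps the cell's own RNA from being sensed. It read 1662, 1887 and 2176 in NTC, 1419, 2503 and 2284 with shA and 3612, 2355 and 2433 with shB, again with shA replicate 1 lowest. Its log2 change was 0.31 (SE 0.20, adjusted p 0.301), with a 95% interval from -0.15 to 0.77. The interval of Eif2ak2 includes a change as large as that of Irf9, so a lack of change was not shown. Without the first replicate of every group, all 42 genes passed, Eif2ak2 and Adar included, where 23.7% of all genes tested rose. The third gene of the group, the exonuclease Isg20, rose from 206, 107 and 181 in the controls to 335, 479 and 606 with shA and 423, 677 and 697 with shB, a log2 change of 1.70 (SE 0.27, adjusted p 0.00203). Isg20 was 1 of the genes in which NTC replicate 1 was not the lowest control.

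All 7 direct antiviral effectors rose, by a median of 2.48. Cmpk2, a mitochondrial nucleotide kinase whose gene lies beside Rsad2, changed most: it read 27.0, 168 and 202 in NTC, 439, 939 and 1188 with shA and 1055, 1349 and 1501 with shB. Its groups did not overlap; the log2 change was 3.36 (SE 0.58, adjusted p 0.00287) and 2.45 without NTC replicate 1. Mx2, a dynamin-like GTPase, changed least, from 45.1, 39.1 and 47.0 in the controls to 117, 134 and 187 with shA and 133, 225 and 260.1 with shB. The control values of Mx2 were close together, and the log2 change was 1.94 (SE 0.27, adjusted p 0.00111). Mx1 went from 32.7 ± 16.0 to 156 ± 69.0 under shA and 287 ± 65.7 under shB (SD, n = 3); C57BL/6 mice are known to carry defective alleles of both Mx genes, so these are transcript levels only. Rsad2, which encodes viperin, an enzyme that makes a chain-terminating nucleotide, went from 151 ± 61.4 to 593 ± 269.9 and 949 ± 226 (SD, n = 3), and was highest among the controls in NTC replicate 1. Bst2, which encodes tetherin, a membrane protein that holds budding virus at the cell surface, went from 1109.7 ± 591 to 5994 ± 1185 and 6271 ± 2969 (SD, n = 3). Samd9l, a translation inhibitor, went from 188 ± 72.9 to 861 ± 325 and 1220.0 ± 361, and Rtp4, a chaperone of receptor transport, from 378 ± 196 to 1712 ± 549.5 and 2228 ± 863 (SD, n = 3).

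Genes of the ISG15 and ubiquitin group rose in all 6 cases, by a median of 2.39. Trim30a, a member of the TRIM family of ubiquitin ligases found in mouse, had the largest change of this group and the smallest adjusted p of the 42 genes. It read 52.9, 142 and 151 in NTC, 613, 805 and 993 with shA and 1228, 1110.0 and 1405 with shB, and its lowest knockdown value was more than 4-fold above the highest control. The log2 change was 3.24 (SE 0.31, adjusted p 0.000334); it belongs to a family of close copies, so its count is uncertain. Dtx3l, a ubiquitin ligase that works as a pair with PARP9, changed least, from 611, 1177 and 1354 in the controls to 1129.6, 2411 and 2766 with shA and 3902, 2310.3 and 2509 with shB. The value of shA replicate 1 lay within the controls, and the log2 change was 1.25 (SE 0.33, adjusted p 0.0225) and 0.90, no longer passing, without NTC replicate 1. Isg15, a ubiquitin-like protein that is joined to other proteins, went from 295 ± 168 to 2120.5 ± 1059 under shA and 2912 ± 1604 under shB (SD, n = 3). Usp18, which removes ISG15 and also blocks signalling at IFNAR2, went from 427 ± 224 to 1803 ± 857 and 2341 ± 823 (SD, n = 3). Herc6, the main ISG15 ligase in mouse, went from 85.8 ± 63.6 to 338 ± 98.9 and 405 ± 102, and Trim25, a ligase that activates RIG-I, from 853 ± 259.9 to 2149 ± 509.6 and 3085 ± 195 (SD, n = 3).

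The PARP genes, which encode enzymes that attach ADP-ribose to proteins, rose by a median of 1.37. Parp14 read 205, 748 and 1256 in NTC, 1497, 4104 and 3486 with shA and 6169, 3194 and 4101 with shB. Its groups did not overlap, and its log2 change was 2.58 (SE 0.53, adjusted p 0.00657) and 1.84 without NTC replicate 1. Parp12 read 546, 986 and 1213 in NTC, 834, 2303 and 2306 with shA and 2608, 2199 and 2471 with shB. The value of Parp12 in shA replicate 1 was below that of NTC replicate 2, and the log2 change was 1.20 (SE 0.34, adjusted p 0.0296) and 0.87 without NTC replicate 1. Parp9, the partner of Dtx3l, with which it shares a promoter that runs in both directions, went from 1069 ± 416 to 2353 ± 964 under shA and 3101 ± 379 under shB (SD, n = 3). With shA alone, of these genes only Parp14 passed.

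The other 7 interferon-induced genes all rose, by a median of 3.02. Phf11b, a PHD finger gene, had the largest change, from 3.38, 37.1 and 31.7 in the controls to 223, 188 and 222 with shA and 205, 188 and 229.7 with shB. The knockdown values lay close together whereas NTC replicate 1 was far below the other controls. The log2 change was 3.64 (SE 0.62, adjusted p 0.00268) and 2.59 without NTC replicate 1, and reads shared with its copy Phf11d make both uncertain. Ifi35, which forms a complex with NMI, changed least, from 278, 498 and 760.0 in the controls to 1157, 1706 and 1742 with shA and 1145, 1766 and 2493 with shB, with a log2 change of 1.77 (SE 0.32, adjusted p 0.00392). Ifi44 went from 77.1 ± 53.5 to 589.8 ± 329 under shA and 887 ± 97.0 under shB (SD, n = 3). Xaf1, a promoter of cell death that binds XIAP, went from 154 ± 116 to 743 ± 267 and 1049 ± 218 (SD, n = 3). Epsti1 went from 351 ± 208 to 2292 ± 402 and 2604 ± 685, and Ifi27l2a from 59.6 ± 39.2 to 485 ± 181 and 509.7 ± 247 (SD, n = 3). Ifi27l2a and Phf11b were the 2 genes of the set in which shA replicate 1 was not below the mean of the other shA libraries, with 667 normalized reads of Ifi27l2a against 306 and 483.

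Per kilobase of exon, the levels of the 42 genes differed by orders of magnitude. In NTC, Bst2 was highest at 1229 normalized reads per kilobase, followed by Isg15 at 391, Ifi35 at 296, Adar at 235 and Parp12 at 229. Ddx60 was lowest at 5.20, after Mx1 at 8.63. In the knockdown tumours Bst2 was again highest, at 6791, and Isg15 second, at 3328. The order of Ifi35, Adar and Parp12 in NTC lay within the spread of the libraries, since the SD of Ifi35 was 241 on a mean of 512 normalized reads. Across the 42 genes, the log2 NTC level per kilobase and the log2 change had a Pearson r of -0.44; genes are not independent replicates, both measures share the NTC libraries, and no p is given.

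With and without a promoter match, the log2 changes of these genes had like medians. The 15 genes with a match had a median log2 change of 2.57 for both shRNAs, the 18 without one 2.37, and the 9 with no promoter entry 2.48. Of the pair that did not pass, Eif2ak2 held a match and Adar did not. Oas2, Cmpk2 and Phf11b, the genes with the largest changes of their role groups, show the range: Oas2 had no entry, Cmpk2 held no match in this window and Phf11b held 1.

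With shA alone, 36 of the 42 genes rose and 0 fell (limma), where 11.4% of all genes tested rose and 5.59% fell, and the median log2 change was 2.23. The genes that did not pass were Stat2, Dtx3l, Parp9, Parp12, Eif2ak2 and Adar. The same 6 genes were those in which the shA libraries were not all above the NTC libraries; across all genes tested, 24.3% had every shA library above every NTC library. The value of shA replicate 1 was low for most of the set: it was below the mean of the other shA libraries for 40 of the 42 genes, with a median log2 difference of -1.10. Without shA replicate 1, 40 genes rose, and without shA replicate 3 only 27. Over all genes tested, these fits called 1767 and 1781 in either direction, against 2478 in the main fit. Of the 36 genes, 25 passed with each library left out in turn. The 11 that lost their call at least once were Ddx58, Ddx60, Herc6, Ifi44, Ifih1, Oas2, Oas3, Oasl2, Parp14, Usp18 and Xaf1.

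With shB alone, 40 of the 42 genes rose and 0 fell (limma), where 13.4% of all genes tested rose and 7.02% fell. The median log2 change was 2.65. Every shB library was above every NTC library for all 42 genes, Eif2ak2 and Adar included, against 22.3% of all genes tested. Eif2ak2 then had a log2 change of 0.80 (SE 0.34) with an adjusted p of 0.132, and Adar 0.53 (SE 0.24) with 0.146, so neither passed. Leaving out each library gave between 38 and 41 genes that rose. Over all genes tested, these fits called from 1830 to 4239 in either direction, against 2983 in the main fit. Dtx3l and Parp12 were the 2 of the 40 that lost their call at least once. The comparisons with shA and with shB share the NTC libraries and are not independent of each other.

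**Figure D3:**
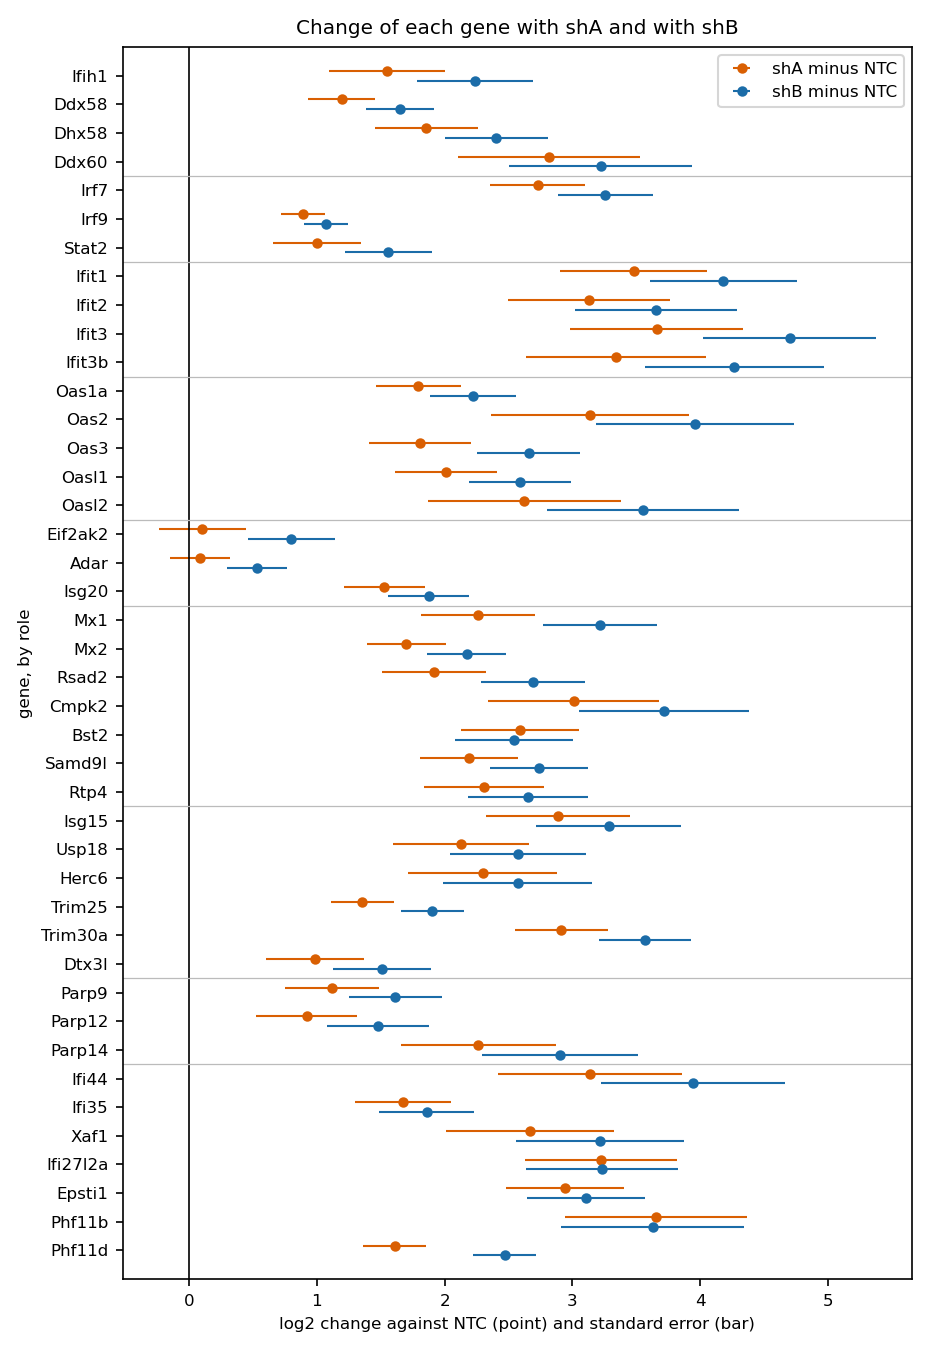
Log2 change of each gene against NTC with shA (orange) and with shB (blue), with the standard error of each change as a bar, for 3 libraries per group. Both changes are above 0 for all 42 genes; those of Adar and Eif2ak2 are the smallest, and with shA both turn below 0 when NTC replicate 1, shA replicate 2 or shA replicate 3 is left out.

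Set directly against each other, shA and shB differed in none of the 42 genes at an adjusted p of at most 0.05 in limma, nor in any of the 14600 genes tested (0.0%). The fitted level was higher with shB for 40 of the 42 genes, where 49.2% of all genes tested were higher with shB, and Bst2 and Phf11b were the exceptions; with library weights in the fit, 9 of the 42 genes were higher with shA. The median log2 difference, shA minus shB, was -0.55 for the 42 genes and 0.01 for all genes tested. At an unadjusted p under 0.05, 1 of the 42 genes was found, higher with shB, where 3.6% of all genes tested were higher with shB at that p and 6.92% differed in either direction. Every shB library was above every shA library for 8 genes, a pattern that 5.31% of all genes tested had: Ifih1, Irf9, Oas2, Oas3, Oasl2, Trim25, Trim30a and Phf11d. The reverse was seen for 0 genes. edgeR on the recovered reads also called 0 of the 42 genes and found 1 at an unadjusted p under 0.05. DESeq2 called 0 of them and found 3. The number of the 42 genes at an unadjusted p under 0.05 varied with the fit. It was 11 with the replicate number as a block and 16 without the first replicate of every group. Without NTC replicate 1 it was 6, and without shA replicate 3 also 6. The shares of all genes at that p were taken for the main fit only, so these counts have none to stand beside. In these fits 0 of the 42 genes were called. Over all genes tested, 13 were called without the first replicates and 1 without shA replicate 3.

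The 6 genes with the smallest p in this comparison were Phf11d, Trim25, Mx1, Oas3, Eif2ak2 and Rsad2. Phf11d read 48.4, 43.2 and 44.1 in NTC, 117, 133 and 173 with shA and 213, 246 and 307 with shB, so the 3 groups stood in separate ranges. The log2 difference, shA minus shB, was -0.86 (SE 0.25) with an adjusted p of 0.68 in limma and a 95% interval from -1.41 to -0.31. Trim25 read 1584, 2288 and 2574 with shA and 2872, 3255 and 3127 with shB, after 554, 977 and 1028 in NTC, a difference of -0.55 (SE 0.25, adjusted p 0.68). Mx1 read 16.9, 32.1 and 48.9 in NTC, 89.3, 151 and 227 with shA and 212, 331 and 319 with shB, and the top of shA was above the bottom of shB. Its difference was -0.95 (SE 0.45, adjusted p 0.68). For Oas3, 205, 575 and 525 with shA stood against 784, 648 and 714 with shB, with 71.0, 132 and 152 in NTC, a difference of -0.85 (SE 0.40, adjusted p 0.68). Rsad2 read 221, 106 and 125 in NTC, 285, 705 and 789 with shA and 695, 1025 and 1127 with shB, with a difference of -0.78 (SE 0.41, adjusted p 0.68). The difference for Eif2ak2 was -0.70 (SE 0.34, adjusted p 0.68), with a 95% interval from -1.46 to 0.07. In Trim25 and Oas3 the shRNA groups did not overlap, and in Mx1, Rsad2 and Eif2ak2 they did.

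Leaving out shA replicate 1 moved the difference between the shRNAs more than leaving out any other single library. The lowest knockdown library was shA replicate 1 for 38 of the 42 genes, shB replicate 1 for 3 and shB replicate 2 for 1. The highest was shB replicate 3 for 27 genes, shB replicate 1 for 12 and shB replicate 2 for 3. Without shA replicate 1 the median difference, shA minus shB, went from -0.55 to -0.19, and 0 genes were called. The median difference was -0.62 without shB replicate 1 and -0.76 without shA replicate 3. In shB replicate 1 the level depended on transcript length: relative to the other shB libraries, the median log2 level was -0.94 for 14 of the 42 genes with exons of up to 3103 bases in all and 0.28 for 12 genes with at least 5651 bases. For all genes tested with a known length the same medians were -0.41 and 0.32, with a Pearson r of 0.42 between the shift and log length over 14456 genes. The median of the short genes among the 42 was thus below that of all short genes, a difference that was not tested. Short genes such as Isg15, Bst2 and Ifi27l2a were lowest with shB in replicate 1, whereas long ones such as Parp14, Dtx3l and Adar were highest there.

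**Figure D4:**
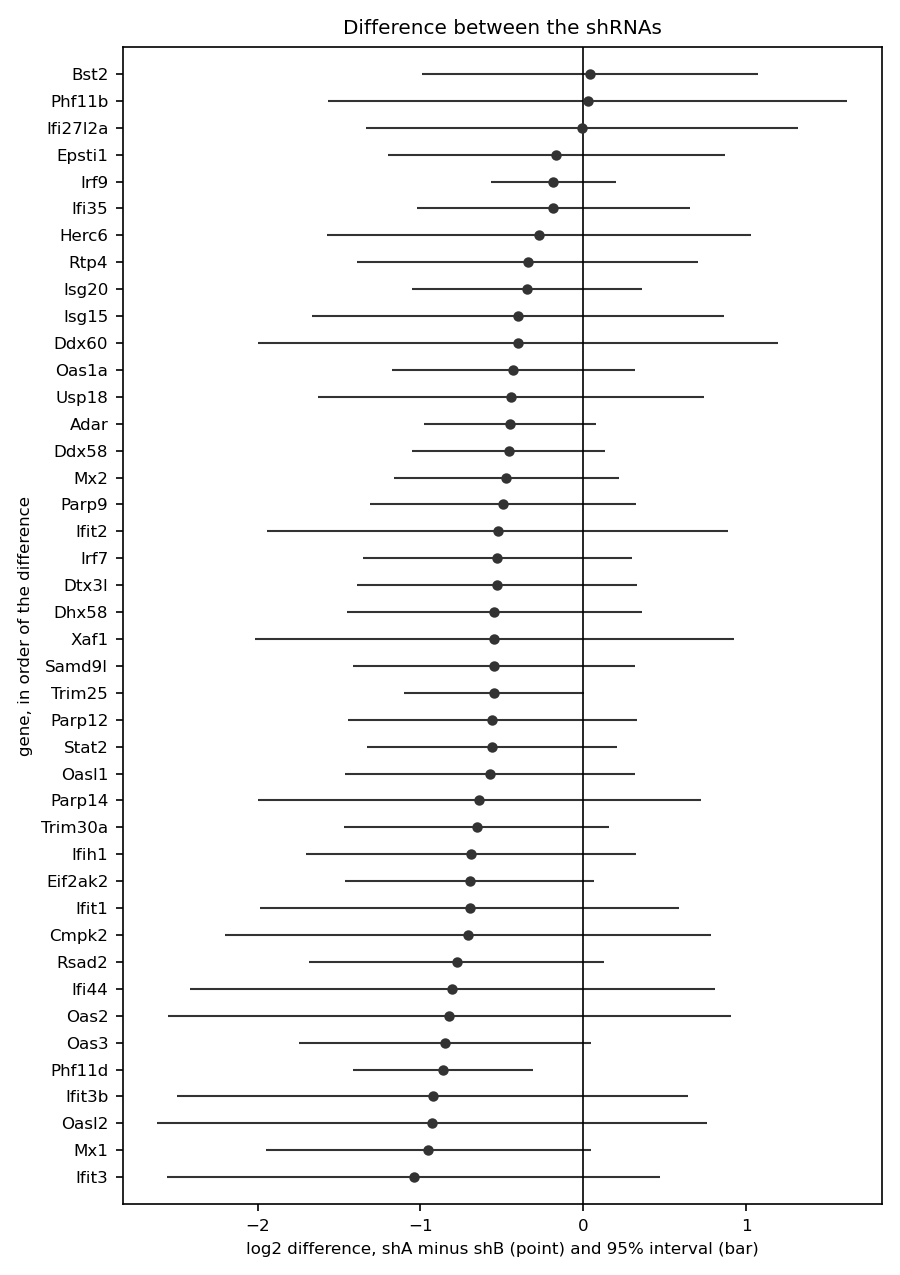
Difference between the shRNAs for each gene, as the log2 difference shA minus shB with its 95% interval, in order of the difference. The points of 40 genes lie below 0, the median is -0.55, and only the interval of Phf11d (from -1.41 to -0.31) lies wholly below 0.

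Genes upstream of the set were taken from lists of the pathway. Of 21 interferon genes listed as ligands, 1 had a row, Ifng; the interferon alpha, beta and lambda genes are not analysed here. Ifng, the type II interferon made by T cells and NK cells, read 0, 2.01 and 16.3 in NTC, 35.9, 44.9 and 63.9 with shA and 34.8, 15.7 and 38.3 with shB. It was low in all libraries, and its highest control, in NTC replicate 3, was just above the lowest knockdown value. It rose for both shRNAs with a log2 change of 3.72 (SE 0.92, adjusted p 0.0163), a size that depends on the added 0.5 since NTC replicate 1 is at 0. The call was lost without NTC replicate 1 (log2 change 2.49, adjusted p 0.0522) or NTC replicate 2 (adjusted p 0.0560), and the change was 5.03 without NTC replicate 3. With shA alone Ifng passed (adjusted p 0.0283), and with shB alone it did not (0.0521).

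Of 9 receptor chains and kinases, 3 rose and 1 fell, where 15.5% of all genes tested rose and 9.49% fell; 1 of 9 is close to the latter share. Ifnar1, 1 chain of the type I receptor, read 1462, 1373 and 1191 in NTC, 1091, 1159 and 1333 with shA and 1645, 1423 and 1446 with shB, and its groups overlapped, with a log2 change of -0.00 (SE 0.11, adjusted p 0.998). Ifnar2, the other chain, read 297, 273 and 273 in NTC, 597, 459 and 451 with shA and 421, 404 and 463 with shB. It was higher in all 6 knockdown libraries, by 0.72 (SE 0.14) on the log2 scale (adjusted p 0.00539). Of the interferon gamma receptor, Ifngr1 read 533, 573 and 561 in NTC, 1117, 1004 and 1019.7 with shA and 979, 1095 and 1012 with shB and rose by 0.90 (SE 0.10, adjusted p 0.000542). Ifngr2 read 1449, 1411 and 1102 in NTC, 1797, 1309.5 and 1440.2 with shA and 1239, 1734 and 1789 with shB and did not pass (0.23, SE 0.16, adjusted p 0.336). The chains of the interferon lambda receptor moved in opposite directions. Il10rb, which also serves interleukin 10, read 178, 194 and 206 in NTC, 619, 439 and 453 with shA and 330.0, 574 and 520.2 with shB and rose by 1.32 (SE 0.20, adjusted p 0.00173). Ifnlr1 read 188, 194 and 202 in NTC, 144, 140.2 and 143 with shA and 151, 115 and 117 with shB and had a log2 change of -0.53 (SE 0.17, adjusted p 0.0462), a call that was lost in 7 of 9 fits with 1 library left out, with adjusted p of up to 0.166. The kinases Jak1, Jak2 and Tyk2 had log2 changes of 0.15, 0.19 and 0.17 and did not pass.

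Of 15 genes that lead to interferon production, 11 rose and 0 fell, against the same 15.5% and 9.49% of all genes tested. Tlr3, a receptor for double-stranded RNA in endosomes, went from 66.6 ± 26.5 in the controls to 391 ± 172 under shA and 728 ± 95.5 under shB (SD, n = 3), and the nucleic acid sensor Zbp1 from 273 ± 226 to 1521 ± 662 and 2371 ± 749.5, with a log2 change of 3.60 that was 2.18 without NTC replicate 1, and larger without NTC replicate 2 or, at 4.41, NTC replicate 3. Myd88, an adaptor of Toll-like receptors, and Unc93b1, which brings them to endosomes, rose by 1.02 and 1.87 on the log2 scale. Ikbke, Tlr7, Tlr9, Trim56, Zc3hav1, Tmem173 (STING) and Mavs also rose, the last pair by 0.66 and 0.45. Without NTC replicate 1 the calls of Tmem173, Mavs, Tlr7, Tlr9, Trim56 and Zc3hav1 were lost, and that of Tlr9 was lost in 8 of the 9 fits with 1 library left out. Cgas, the DNA sensor that acts through STING, had a log2 change of 1.91 (SE 0.70, adjusted p 0.0748). The change of Cgas was 0.91 without NTC replicate 1, and 2.55 without NTC replicate 2, where it passed (adjusted p 0.0480). Tbk1, Irf3 and Ticam1 had log2 changes of 0.07, 0.06 and 0.36. Of 12 nucleases and brakes with a row, 6 rose and 0 fell, against those same shares: Samhd1, Dnase1l3, Socs1, Socs3, Ptpn6 and Irf2. Socs1, an inhibitor of JAK kinases induced by interferon, went from 203 ± 53.1 in the controls to 792 ± 113 under shA and 717 ± 199 under shB (SD, n = 3), and the call of Socs3 was lost without NTC replicate 1, NTC replicate 2 or shB replicate 2.

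Markers of immune cells and of fibroblasts rose in the same comparison, and red blood cell markers fell. All 5 leukocyte markers, 11 of 11 tested macrophage markers and 14 of 14 T cell markers rose for both shRNAs. Beside these and the counts below, 15.5% of all genes tested rose and 9.49% fell. The leukocyte sum ranged from 568 to 1767 normalized reads in NTC, from 6549 to 18104 with shA and from 5651 to 7214 with shB. For macrophages it ranged from 6560 to 10762, from 56213 to 64453 and from 36029 to 50606, and for T cells from 368 to 726, from 2694 to 8338 and from 2148 to 2497. Of 8 tested markers of plasmacytoid dendritic cells, which are known for making interferon alpha, 5 rose and Tcf4 fell. The defining Siglech read 0, 4.02 and 6.72 in NTC, 119.8, 24.3 and 18.9 with shA and 36.6, 38.3 and 31.5 with shB. The median log2 change of the tested markers was 2.34. The sum over the 10 markers with a row did not rise with it. It ranged from 8316 to 9137 in NTC, from 6477 to 9750 with shA and from 5902 to 7341 with shB. Of 10 tumour and epithelial markers, 2 rose (Krt7 and Cdh1) and 1 fell (Cdx2), shares near the 15.5% rising and 9.49% falling of all genes tested. Of 8 fibroblast markers, 6 rose, with a median log2 change of 1.48 over the list and sums from 7353 to 12417 in NTC, from 13970 to 26997 with shA and from 16188 to 36349 with shB. Of 5 red blood cell markers, 4 fell, with a median of -3.63, and their sum ranged from 3402 to 61042 in NTC, from 516 to 2526 with shA and from 176 to 1455 with shB. Of 7 skeletal muscle markers 1 rose, a share near the 15.5% of all genes tested. Their sum ranged from 102 to 274 in NTC and from 127 to 7287 over the knockdown libraries, the highest being shB replicate 1. Of 6 neutrophil markers tested 3 rose, and 0 of 6 endothelial and 0 of 2 tested B cell markers did. In a whole tumour, more cells of a type and more RNA per cell cannot be told apart, and the part of these cells in the change of the 42 genes was not tested.

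The libraries did not keep the same order in both. Between the shRNAs, the leukocyte, macrophage and T cell markers had median log2 differences, shA minus shB, of 0.57, 0.40 and 0.75, with 0 of them called, whereas the 42 interferon-stimulated genes had -0.55. In shA replicates 2 and 3 the leukocyte sums were 7497 and 6549, which overlap the range with shB. Replicate 1 of shA had the highest leukocyte and T cell sums of all libraries, and was the lowest knockdown library for 38 of the 42 genes. Its macrophage sum, 56213, was below the 64453 and 60157 of the other shA libraries. The mean log2 level of the macrophage list over the NTC mean was highest there, at 3.03. Its endothelial marker sum was 8026, against 1802 to 3018 in all other libraries. The meaning of the order in this 1 library was not tested. The mean log2 level of the 42 genes over the NTC mean was 1.49 there, against 2.37 and 2.60 in the other shA libraries and 2.50 to 2.92 with shB. A comparison list held 27 genes associated with interferon gamma, such as Cxcl9, Ciita and the Gbp GTPases. All 27 rose for both shRNAs, 23 with shA and 27 with shB, where 15.5%, 11.4% and 13.4% of all genes tested rose. Their median log2 change for both shRNAs was 3.14, and their median difference, shA minus shB, was -0.19. This list too was lowest in shA replicate 1 among the knockdown libraries. Its mean log2 level over the NTC mean was 2.73 there, against 3.01 to 3.66 in the others. No test of the difference between these lists was made.

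**Figure D5:**
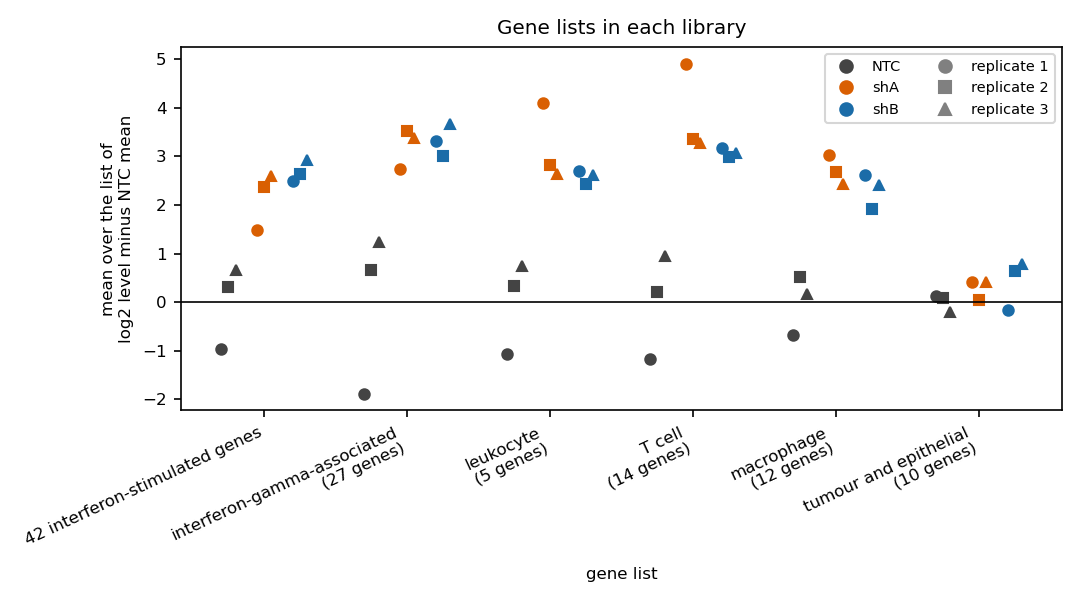
Mean over each gene list of log2(normalized reads + 0.5) minus the NTC mean, in each library, with colour for the group and shape for the replicate. In shA replicate 1 the 42 interferon-stimulated genes are at 1.49, below the other knockdown libraries, while the leukocyte and T cell lists are at their highest. The interferon-gamma-associated list is also lowest there among the knockdown libraries, at 2.73 against 3.01 to 3.66.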

How the data were processed

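RNA-seq of 9 MC38 tumours, 3 each for NTC, shA and shB, was deposited as 1 value per gene and library; this signal is, as deposited, a read count divided by 1 factor per library, since all values were whole multiples of 1 step within 0.001. The submitters' processing notes name Cuffdiff 2.2.1 and mm9 with no role; the aligner, counter, annotation and strand setting were not given in the sources used here. Reads of overlapping and antisense genes may therefore be mixed. From these values, limma 3.58.1 (R 4.3.3) was fitted to log2(value + 0.5) with a mean trend, in 1 model over 3 groups, for 14600 of 17134 genes with at least 20 normalized reads in at least 3 libraries. "Both shRNAs" weights the shA and shB means equally. P-values were adjusted by Benjamini-Hochberg over all genes tested in each of 4 comparisons, with a threshold of 0.05. Fold changes on this scale understate those of low genes. Depth was 18373748 to 24918174 reads, so counting error is small except for genes of few reads. Exon lengths were GENCODE M21 exon unions matched by symbol. The limma fit for both shRNAs against NTC was tested on simulated counts, in which no library stood apart from its group. Values in every library are given for the gene of largest and of smallest change in each role group, each gene that did not pass, the 6 smallest p between the shRNAs, and ligands and receptors. Alternatives covered the added constant, filter, scaling, prior, weights, libraries left out, edgeR 4.0.16 and DESeq2 1.42.0. The genes and all lists were chosen with earlier results of these data known. A gene of the pathway list is not reported here.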

Additional observations from a re-analysis of the deposited data

How the results depend on the processing

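For both shRNAs against NTC, the number of the 42 genes that rose stayed between 36 (without NTC replicate 1) and 42 (library weights, or the first replicate of every group left out together) over 24 alternatives, and 0 fell in any. The calls over all genes moved too. In either direction, library weights called 8819 genes and the fit without the first replicates 6259, against 3644 in the main fit. Without NTC replicate 1, 2002 genes were called. With shA the number of the 42 genes that rose lay between 27 (without shA replicate 3) and 40 when single libraries were left out, and with shB between 38 and 41. Between the shRNAs, 0 of the 42 genes were called under all alternatives but library weights, which called 1, Phf11d, and 1396 of all genes. The fit of these weights had stopped before it converged. There the median difference, shA minus shB, was -0.17 and 9 of the 42 genes were higher with shA. DESeq2 called 24 genes of all tested between the shRNAs. Without the first replicates 13 were called, and without shA replicate 3 there was 1. None of these was in the set. Changes of filter or prior and the replicate block could not move a log2 change, only its p. For both shRNAs, the fit of only the compared groups was the main fit itself. Direction could thus not change in these alternatives. Of 1008 single-gene values for both shRNAs, 995 kept direction and side of the threshold, 9 lost and 4 gained the call. With shA 946 were kept, 39 lost, 17 gained and 6 changed sign. The sign changes were small: leaving out single libraries gave Eif2ak2 with shA log2 changes from -0.14 to 0.50 (-0.11 without NTC replicate 1, -0.050 without shA replicate 3), and Adar from -0.075 to 0.33 (-0.012 without NTC replicate 1, -0.0091 without shA replicate 3). The log2 change of Ifnar1, near 0, was 0.013 with TMM factors, 0.033 with upper quartiles, 0.042 with library weights, 0.012 in edgeR, 0.0045 in DESeq2 and 0.062 without the first replicates, and from -0.084 to 0.064 with single libraries left out. The cause was not tested. The change of Gad1 was -3.14 without the first replicates, with an exact p of 0.0667, the smallest that 15 assignments allow. The replicate numbers are not stated to pair the tumours, and deviations of same-numbered libraries had correlations from -0.34 to 0.06. With the replicate number as a block, 40, 37, 40 and 0 of the 42 genes were called for both shRNAs, shA, shB and shA against shB. Over all genes tested, 2921, 1778, 2376 and 0 were then called in either direction. Depth limits genes with few reads in NTC, such as Ifng and Tlr9, and 3 libraries per group limit all intervals. A fold against a control near 0 depends on the added constant.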
